A study of Mus musculus with 6 samples.

Results

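The granins Chga, Chgb, Scg2, Scg3 and Vgf (5 of the 54532 genes listed) were followed in N2a cells after knockdown of circRtn4. N2a is a mouse neuroblastoma cell line, labelled as strain C57BL/6, and circRtn4 is a circular RNA made from exons of the reticulon gene Rtn4. RNA was sequenced from 3 libraries of cells transfected with si-NC, a control siRNA, and from 3 libraries transfected with si-circRtn4, an siRNA against the circle. All 6 libraries came from the same line, with no other genetic change named, and a single siRNA represents the knockdown. The labels name growth medium with serum for all of them, whereas the study's general methods move transfected N2a cells to low-serum medium with retinoic acid, and whether the sequenced cells were differentiated in this way is not stated. Nothing in the labels says that libraries of a group came from separate cultures, so SDs and p-values measure the spread between these libraries only. The granins were selected by gene name, but with their levels in si-circRtn4 against si-NC already known. Their own differences are therefore given as a description, without a test.

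Granins are acidic proteins of the regulated secretory pathway. They aggregate with calcium in the trans-Golgi network, take part in forming dense-core granules, and are cut inside the granules into peptides that are released with hormones and catecholamines. Chromogranin A and chromogranin B are the classical pair of chromaffin cells and sympathetic neurons, and their blood levels serve as markers of neuroendocrine tumors. Secretogranin II is the precursor of secretoneurin, secretogranin III binds chromogranin A and cholesterol-rich granule membrane, and VGF is a neurotrophin-inducible precursor of several neuropeptides.

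Levels were given by the authors as FPKM, a read density scaled to gene length and library depth. Between 13541198 and 15122063 reads on genes could be recovered per library. Of 9 markers of sympathetic neuroblasts, 9 reached 1 FPKM in every library, and their summed level was 1472 to 1526 FPKM in si-NC and 1092 to 1405 FPKM in si-circRtn4. Of 18 markers of glia, fibroblasts, immune cells and endothelium, 0 reached 1 FPKM in every library, and Cd14 and Cd3e were at 0 in all of them. The short gene Gm23935, listed as a miRNA gene, took 20.1% to 20.7% of all FPKM in si-NC and 13.5% to 18.8% in si-circRtn4, and its part in the results was not tested beyond a rescaling without it. Rtn4 itself was at 61.0, 66.8 and 69.8 FPKM in si-NC and at 50.1, 56.7 and 62.7 FPKM in si-circRtn4, with a log2 fold change of -0.22 (SE 0.10, adjusted p = 0.216 by limma, and 0.0447 with replicate number as a block). Its circle cannot be told apart from linear Rtn4 in a table of genes, so the knockdown was not checked here.

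The 5 genes lie on 5 chromosomes and differ in structure (GRCm38 coordinates of the files, exons of GENCODE M21). Chga (ENSMUSG00000021194) is on the plus strand at chr12:102554969-102565028, and its 8 exons code for 463 amino acids. Chgb (ENSMUSG00000027350) is on the plus strand at chr2:132781278-132795079, codes for 677 amino acids, and holds 87.0% of its coding sequence in 1 exon of 5. Scg2 (ENSMUSG00000050711), on the minus strand at chr1:79434669-79440120, and Vgf (ENSMUSG00000037428), on the plus strand at chr5:137026392-137033351, each code for 617 amino acids from 1 coding exon. Scg3 (ENSMUSG00000032181) is on the minus strand at chr9:75643189-75684056 and spreads 471 codons over 12 exons.

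Promoter sequence was examined because several granin genes are known targets of cAMP signaling through CREB, which binds the cAMP response element TGACGTCA. RefSeq promoter windows (GRCm38.p6, 250 bases before to 50 bases after the annotated start) were at hand for 4 of the 5 genes, Chga, Chgb, Scg2 and Scg3. The stretches of 30 bases below are shown because each holds the core TGACG, in capitals, on the strand of the gene:
Chga, chr12:102554885-102554914, plus strand: ggggcggtcctaTGACGtaatttcctgggt
Chgb, chr2:132781558-132781587, plus strand: ggggctgctccgTGACGtcagggctgagcg
Scg2, chr1:79440077-79440106, minus strand: aggctgagccggTGACGtcagcgtggaatg
Scg3, chr9:75684069-75684098, minus strand: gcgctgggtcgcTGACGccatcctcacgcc
The full palindrome TGACGTCA was found in Chgb, 72 bases before the RefSeq start, and in Scg2, 68 bases before it. Chga has TGACGTAA 44 bases before the RefSeq start, and Scg3 has TGACGCCA 30 bases before it. The 2 annotations place some starts differently. By the gene starts in the files, which follow GENCODE, the cores of Chga and Scg3 lie 72 and 30 bases before the gene, but those of Chgb and Scg2 lie 292 and 26 bases after its first base, inside an annotated exon. Which start N2a cells use was not measured. Searched on both strands, the full element was in 1.79% of all 32851 windows and in 3.28% of the windows of genes tested below, and the core, which every full element contains, in 20.8% and 31.8%. A match of letters is not a binding site, and no measure of binding was made in these cells.

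**Figure D1:**
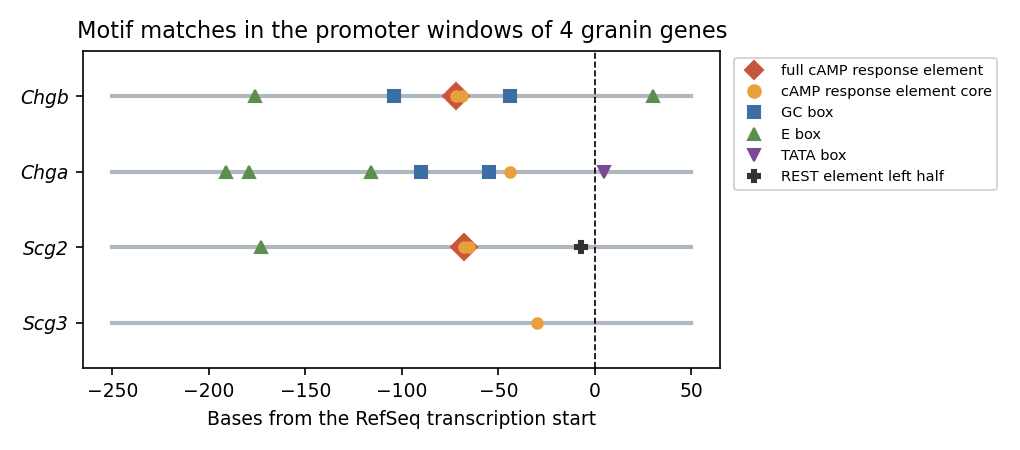
Motif matches on either strand in the promoter windows of 4 granin genes. The x axis gives bases from the RefSeq start (dashed line), grey lines are the windows from 250 bases before to 50 bases after it, and overlapping symbols on Chgb and Scg2 are the cores inside the full element, which Chga and Scg3 lack.

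The other motifs searched were less evenly shared. The GC box GGGCGG, which Sp1 factors bind, was in Chga and Chgb (in 35.7% of all windows and 64.2% of those of genes tested), and the TATA box TATAAA was in Chga alone, 5 bases after the RefSeq start (13.6% and 6.31%). The E box CANNTG, the site of basic helix-loop-helix factors, was in Chga, Chgb and Scg2 (72.3% and 63.0%). TCAGCACC, the left part of the element of the neuronal repressor REST, was in Scg2 alone, 7 bases before the RefSeq start (1.65% and 1.66%). These positions also depend on the start. For Chga it is 102554941 by RefSeq and 102554969 in the files, so by the files the TATA box lies before the gene. By the files the REST part lies after the first base of Scg2.

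Seed sites were searched because the study deals with miR-24-3p as a microRNA bound by circRtn4, and because an siRNA guide can act through its own seed. The sequences are shown with bases 2 to 8 in capitals, and the guide is taken as the reverse complement of the siRNA strand that the study lists:
mmu-miR-24-3p: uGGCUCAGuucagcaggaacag
si-circRtn4 guide: aAAAGGGUcucaucugaag
The 7-base site of miR-24-3p (CTGAGCC) was found 0 times in the annotated 3′ UTRs of the 5 granins, against 19.6% of 10694 genes with such a UTR. The site of the guide (ACCCTTT) was also found 0 times, against 12.5% of these genes. The longest annotated UTR of each gene was searched, and those of the granins have 250 to 637 bases. The shares were not matched for UTR length, and with 5 genes nothing is read from these absences. Elsewhere in the transcripts, Scg2 and Vgf each have 1 miR-24-3p site and Vgf has 1 guide site, all before the coding sequence, and that of Scg2 lies in the stretch upstream of the RefSeq start shown above.

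Chgb was the most abundant granin and the one with the largest difference. Its level was 1271, 1167 and 1462 FPKM in si-NC replicates 1, 2 and 3 and 298, 315 and 478 FPKM in si-circRtn4 replicates 1, 2 and 3. The groups did not overlap, and the highest si-circRtn4 library stood far below the lowest si-NC library. The mean was 1300 ± 149 FPKM in si-NC and 364 ± 99.4 FPKM in si-circRtn4 (SD, n = 3 each), so that 28.0% of the si-NC level was left. On the log2(FPKM + 1) scale the difference was -1.86 (SE 0.19), the fifth lowest of the 12749 genes that averaged 1 FPKM or more. Among all listed genes, Chgb ranked between 10 and 16 by level in si-NC and between 66 and 107 in si-circRtn4.

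Chga came next, with the tightest replicates of the pair. It stood at 279, 247 and 238 FPKM in si-NC and at 78.7, 86.4 and 90.6 FPKM in si-circRtn4. Every si-circRtn4 library was again below every si-NC library. The means were 255 ± 21.6 and 85.2 ± 6.06 FPKM (SD, n = 3 each), 33.5% of the si-NC level, and the log2 difference was -1.57 (SE 0.093), rank 17 from the lowest.

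Scg2, the secretoneurin precursor, differed less and varied most. It was at 66.5, 80.9 and 102 FPKM in si-NC and at 40.5, 60.7 and 75.3 FPKM in si-circRtn4, so the groups overlapped. In both groups replicate 1 was the lowest and replicate 3 the highest. The means were 83.1 ± 17.8 and 58.8 ± 17.5 FPKM (SD, n = 3 each), 70.8% of the si-NC level, with a log2 difference of -0.51 (SE 0.24). Without si-circRtn4 replicate 1 the difference was -0.27.

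Scg3, which tethers chromogranin A to the granule membrane, was at 64.8, 72.3 and 77.1 FPKM in si-NC and at 56.2, 58.3 and 63.5 FPKM in si-circRtn4. The groups did not overlap, but the gap between the highest si-circRtn4 library and the lowest si-NC library was narrow. The means were 71.4 ± 6.17 and 59.3 ± 3.76 FPKM (SD, n = 3 each), 83.1% of the si-NC level, with a log2 difference of -0.26 (SE 0.090). This value was -0.17 as TPM, with every library scaled to an equal FPKM total.

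Vgf was the only granin whose mean was higher after knockdown. Its level was 182, 172 and 205 FPKM in si-NC and 188, 241 and 190 FPKM in si-circRtn4, and the groups overlapped. The higher mean came with a single high library, si-circRtn4 replicate 2. The means were 186 ± 17.3 and 206 ± 30.1 FPKM (SD, n = 3 each), 111% of the si-NC level, and the log2 difference was 0.14 (SE 0.12). It was 0.02 without si-circRtn4 replicate 2 and 0.23 as TPM, and leaving out si-NC replicate 2 gave 0.08 and si-NC replicate 3 gave 0.21.

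**Figure D2:**
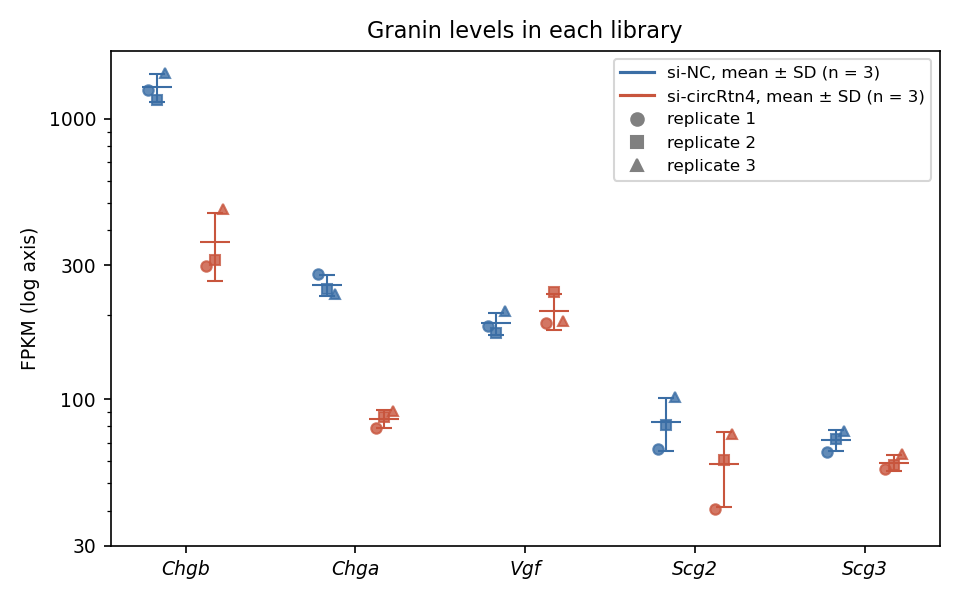
Level of each granin in the 6 libraries, in FPKM on a log axis. Symbols are libraries by replicate number, horizontal ticks with bars are mean ± SD of 3 libraries, and the si-circRtn4 libraries lie below all si-NC libraries for Chgb, Chga and Scg3 but not for Scg2 and Vgf.

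So 3 of the 5 granins were lower without overlap and 0 were higher without overlap, where 15.5% and 16.2% of all genes tested were. Since the genes were chosen with this contrast known, nothing is read from that count. The spread between libraries was larger than counting error: the fewest reads of a granin in a library ranged from 1448 for Scg2 to 11634 for Chgb, which gives a counting CV of 2.63% to 0.927%, while the CV within groups was 6.35% to 29.7%. In bulk RNA, fewer cells expressing a granin and less granin RNA per cell cannot be told apart.

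Libraries with the same replicate number deviated together to a modest degree across genes (correlations of 0.19 to 0.331), so differences were also taken within each number. For Chgb they were -2.09, -1.89 and -1.61 on the log2 scale in replicates 1, 2 and 3. For Chga they were -1.81, -1.50 and -1.38. Scg2 was lower in each of the 3 pairs as well, by -0.70, -0.41 and -0.43, although its groups overlapped. The narrowest set was that of Scg3, at -0.20, -0.31 and -0.28, and only Vgf changed sign, at 0.05, 0.48 and -0.11. How many of all genes have 3 differences of the same sign was not computed. As the granins were chosen with this contrast known, nothing is read from these signs.

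**Figure D3:**
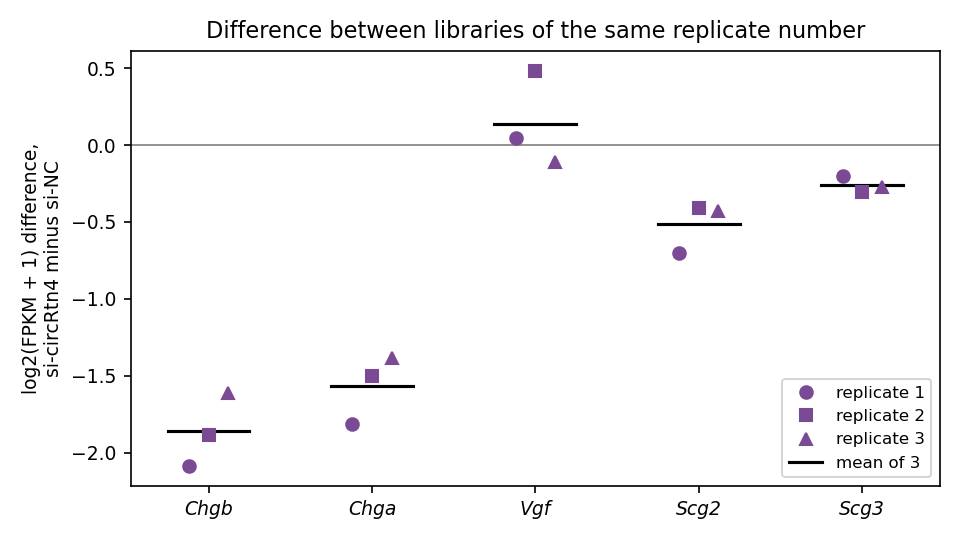
Difference in log2(FPKM + 1) between the si-circRtn4 and si-NC libraries of the same replicate number (symbols), with the mean of the 3 differences (black line). All 3 points are below 0 for Chgb, Chga, Scg2 and Scg3, and they fall on both sides of 0 for Vgf.

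The unequal differences changed the make-up of the granin RNA. Granins here means the 5 genes only. Scg5 and Pcsk1n, taken below with propeptide processing, are not in the sum. They averaged 102 and 149 FPKM in si-NC and 65.1 and 104 FPKM in si-circRtn4. Summed over the 5 genes, granin RNA was 1863, 1739 and 2084 FPKM in si-NC and 661, 761 and 897 FPKM in si-circRtn4. The summed level after knockdown was thus 0.408 of that in si-NC, and the granins took 0.486% to 0.570% of all reads in si-NC and 0.194% to 0.249% in si-circRtn4. Chgb supplied 68.5% ± 1.53 of the sum in si-NC and 46.6% ± 6.10 in si-circRtn4 (SD, n = 3 each). The share of Vgf was 9.83% ± 0.069 in si-NC and 27.1% ± 5.37 in si-circRtn4.

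The order of the levels differed accordingly. In each si-NC library it was Chgb, Chga, Vgf, Scg2, Scg3, and in each si-circRtn4 library Vgf stood above Chga. Within si-NC the ranges of neighbors in the order did not overlap, except those of Scg2 and Scg3. The same held in si-circRtn4, where Scg3 was above Scg2 in replicate 1 and below it in replicates 2 and 3. The ratio of Chgb to Vgf, whose spread in si-NC was small, was 6.99, 6.79 and 7.11 in si-NC and 1.59, 1.31 and 2.52 in si-circRtn4. The ratio of Chgb to Chga was 4.55, 4.73 and 6.14 in si-NC and 3.79, 3.64 and 5.28 in si-circRtn4, lower in each of the 3 same-numbered pairs although the ranges overlap. Ratios, shares and order between genes rest on the gene lengths behind the FPKM values. That of Chga was 2756 bases, whereas its coding transcript has 1883, and Chgb has 2740 in both. Which length applies in these cells was not tested.

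**Figure D4:**
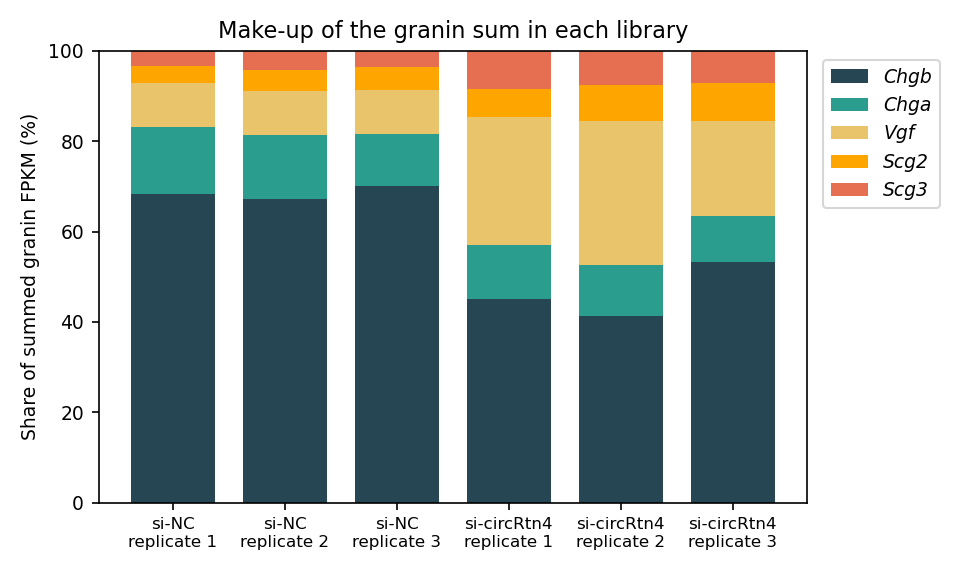
Share of each granin in the summed granin FPKM of each library, in percent. Each bar is 1 library, and the Chgb share is 67.1% to 70.1% in the si-NC bars and 41.3% to 53.3% in the si-circRtn4 bars, while the Vgf share is 9.75% to 9.89% and 21.2% to 31.7%.

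To find the genes with the most similar pattern, each protein-coding gene was centred on its mean log2(FPKM + 1) over the 6 libraries, and the root mean square difference from each granin was taken over 10778 candidates. The nearest to Chga were Resp18, an endocrine granule protein (0.088), and Nfkbia, the inhibitor of NF-kB (0.091). Resp18 was at 71.1, 56.7 and 57.2 FPKM in si-NC and at 20.3, 19.0 and 23.3 FPKM in si-circRtn4, and like Chga it was highest in si-NC replicate 1. For Chgb they were Lrrn4 (0.149) and Adcyap1r1, the receptor of the neuropeptide PACAP (0.191), which was at 40.1, 39.9 and 38.2 FPKM in si-NC and at 10.2, 9.94 and 11.7 FPKM in si-circRtn4.

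The other granins had neighbors of other kinds. Olfml2a (0.108) and Cfap97d2 (0.109) were nearest to Scg2, Ppp1r7 (0.011) and the peroxisomal gene Pex2 (0.013) to Scg3, and Ostc (0.047) and the RNA polymerase II subunit gene Polr2d (0.054) to Vgf. Small distances are common for genes that vary little. Among the granins themselves, Chga and Chgb were 0.262 apart, Scg2 and Scg3 0.268, Scg3 and Vgf 0.252, and Chgb and Vgf 1.04. These distances describe 6 shared libraries and say nothing of shared control.

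The other genes of the dense-core granule pathway were examined in 6 lists, by their role around the granins. Of 109 genes, 71 averaged 1 FPKM or more, and in the limma test 15 of these fell, 3 rose and 53 did not pass an adjusted p of 0.05. With replicate number as a block, 18 fell and 5 rose. Without si-NC replicate 2, 9 fell and 0 rose, and without si-circRtn4 replicate 1 or 2 a single gene rose. The called shares were 21.1% lower and 4.23% higher, where 4.82% of all 12749 genes tested fell and 4.36% rose. Since the lists were chosen with earlier results of these data known, nothing is read from these shares. The same holds for the list counts and medians that follow. The median log2 fold change of the 71 genes was -0.10, against 0.0020 for all genes. With TPM the calls among all genes moved from 556 higher and 615 lower (47.5% higher) to 972 higher and 393 lower (71.2% higher). The median was then -0.02 for the 71 genes and 0.09 for all genes. As TPM rescaled without Gm23935, 583 genes were higher and 536 lower, and these medians were -0.08 and 0.02.

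**Figure D5:**
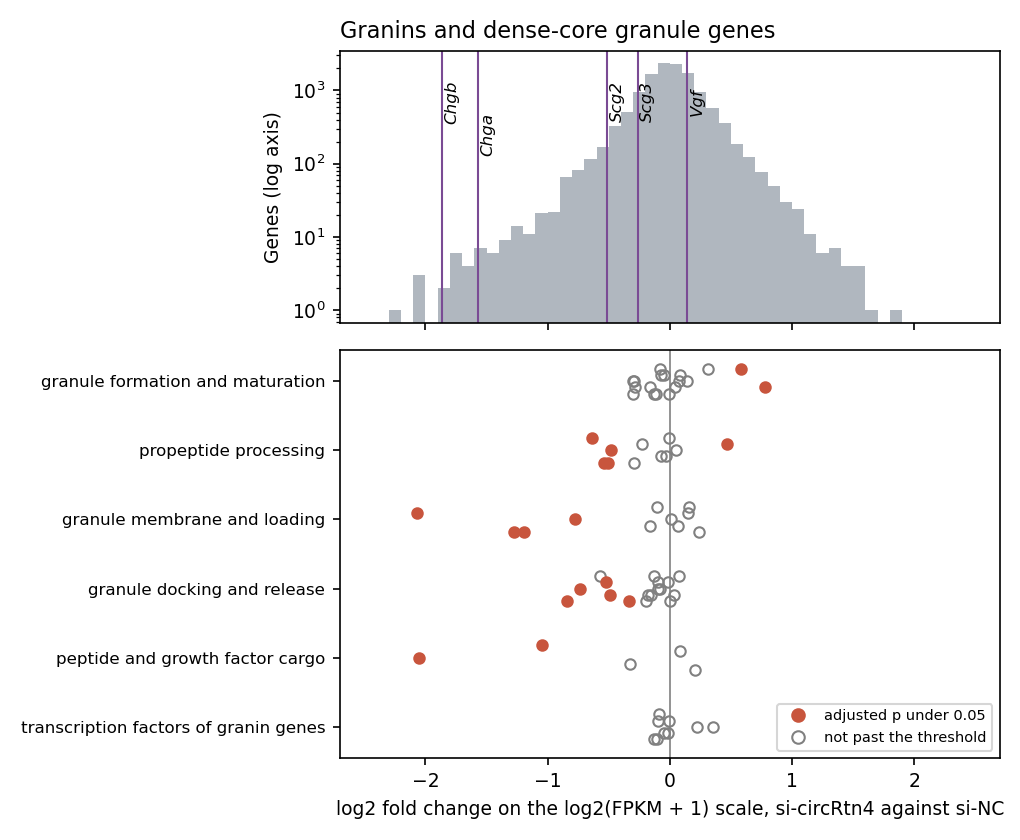
Top, log2 fold changes of all 12749 genes tested (grey bars, number of genes on a log axis), with the granins as lines from Chgb at -1.86 to Vgf at 0.14. Bottom, the 71 pathway genes tested, 1 point each by list, filled where the limma adjusted p was under 0.05 (15 to the left of 0, 3 to the right).

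Propeptide processing, the cutting of granins and hormones into peptides, had 4 lower and 1 higher of 11 genes tested. The shares of all genes tested were 4.82% lower and 4.36% higher. Scg5, the 7B2 chaperone of prohormone convertase 2, fell from 109, 95.8 and 100.2 FPKM to 63.3, 61.4 and 70.5 FPKM (log2 fold change -0.64, SE 0.086, adjusted p = 0.00665 by limma). Pcsk1n, the proSAAS inhibitor of prohormone convertase 1, fell from 169, 140 and 137 FPKM to 105, 108 and 98.7 FPKM (-0.51, SE 0.098, adjusted p = 0.0213). Pcsk2, which encodes convertase 2, was low in all libraries, at 1.45, 1.58 and 1.78 FPKM and at 0.720, 0.861 and 0.774 FPKM (-0.54, SE 0.13, adjusted p = 0.0415). The pseudocount of 1 shrinks a difference at such low levels, and that of Pcsk2 was -0.94 with a pseudocount of 0.1 and -0.997 with limma-voom on recovered reads. The remaining calls, named after their values were seen, were the amidating enzyme Pam (-0.48) and the lysosomal protease Ctsl (0.47).

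The convertase 1 gene Pcsk1 was at or near 0 in every library. Cpe, the carboxypeptidase that trims the cut peptides and a proposed sorting receptor, was at 93.9, 84.2 and 81.2 FPKM in si-NC and at 69.4, 67.0 and 74.8 FPKM in si-circRtn4. Its groups did not overlap, but its adjusted p was 0.0748, and 0.0492 with replicate number as a block. The calls of Pcsk2, Pcsk1n, Pam and Ctsl were lost in 10, 5, 5 and 4 of 13 alternatives. Leaving out si-NC replicate 2 took the adjusted p of Pcsk2 to 0.132, of Pcsk1n to 0.0593, of Pam to 0.0765 and of Ctsl to 0.0697. Leaving out si-circRtn4 replicate 1 gave 0.105, 0.0631, 0.0730 and 0.0640 in the same order, and si-circRtn4 replicate 2 gave 0.0995, 0.0609, 0.0811 and 0.0708. Pcsk2 was also lost without si-NC replicates 1 (0.0732) or 3 (0.133) or si-circRtn4 replicate 3 (0.0956), Pcsk1n without si-circRtn4 replicate 3 (0.0643), and Pam without si-NC replicate 3 (0.0753).

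Granule membrane and loading genes, which fill granules with catecholamines and protons, had 4 lower and 0 higher calls of 11 tested. Among all genes tested, 4.82% were called lower and 4.36% higher. Dbh, the enzyme that makes noradrenaline inside the granule, fell from 3.72, 5.72 and 8.52 FPKM to 0.522, 0.621 and 0.664 FPKM (log2 fold change -2.07, SE 0.23, adjusted p = 0.00352 by limma). At these low levels the size of the fall depends on the pseudocount, and it was -3.04 with 0.1 in place of 1 and -3.18 with limma-voom. Sv2c, a vesicle glycoprotein, fell from 100.2, 107 and 102 FPKM to 38.7, 39.0 and 49.3 FPKM (-1.27, SE 0.10, adjusted p = 0.00139). Slc18a2, the vesicular monoamine transporter VMAT2, fell from 19.3, 18.2 and 21.6 FPKM to 7.67, 6.96 and 9.69 FPKM (-1.19, SE 0.12, adjusted p = 0.00283). Cyb561, which passes electrons to ascorbate in the granule, fell as well (-0.77) and was named after its value was seen. The general vesicle genes Syp (-0.16) and Vamp2 (0.01) did not pass. At an unadjusted p under 0.05, 1 gene of this list was higher, and limma-voom on recovered reads called 0 higher and the replicate block 1.

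Docking and release genes had 5 lower and 0 higher calls of 17 tested, where 4.82% and 4.36% of all genes tested were called. Syt1, a calcium sensor of exocytosis, fell from 25.9, 24.6 and 25.2 FPKM to 13.4, 11.7 and 16.3 FPKM (log2 fold change -0.84, SE 0.11, adjusted p = 0.00673 by limma). Rph3al, a Rab effector of granules also called Noc2, fell from 5.40, 4.56 and 4.81 FPKM to 2.75, 2.17 and 2.76 FPKM (-0.74, SE 0.11, adjusted p = 0.00894). The plasma membrane SNARE gene Stx1a fell from 24.8, 24.8 and 23.1 FPKM to 14.6, 18.2 and 17.2 FPKM (-0.52, SE 0.093, adjusted p = 0.0172, and 0.0702 without si-NC replicate 2). The small GTPase genes Rab27a (-0.49) and Rab3d (-0.34) were the other calls, named after their values were seen.

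The SNARE partner Snap25 (-0.08) and Rab3a (-0.09) did not pass. Rab27a was lost without si-NC replicate 2 (adjusted p = 0.0505 by limma) or si-circRtn4 replicate 2 (0.0502), and Rab3d was lost in all 6 fits that left out a library (0.0623 to 0.127). At an unadjusted p under 0.05, 0 genes of this list were higher, and limma-voom called 0 higher.

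Granule formation and maturation genes, which act at the trans-Golgi network and on immature granules, had 2 higher and 0 lower calls of 18 tested. Of all genes tested, 4.36% were called higher and 4.82% lower. Rab2a, a GTPase of granule maturation, rose from 47.0, 49.2 and 53.3 FPKM to 67.8, 75.9 and 82.1 FPKM (log2 fold change 0.58, SE 0.093, adjusted p = 0.0115 by limma, and 0.0522 without si-NC replicate 2). Syt4, a synaptotagmin of maturing granules, rose from 20.5, 19.2 and 30.9 FPKM to 42.2, 36.5 and 42.2 FPKM (0.78, SE 0.17, adjusted p = 0.0318). The call of Syt4 was lost in every fit that left out a library (0.0722 to 0.0974) but that without si-NC replicate 3. The granule membrane proteins Ptprn (-0.13) and Ptprn2 (-0.29) did not pass. At an unadjusted p under 0.05, 4 genes of the list were lower and 3 higher, and 11 of the 18 log2 fold changes were below 0. On the lower side, limma-voom called 0 and the replicate block 1. The median of -0.06 became 0.01 with TPM, where that of all genes was 0.09.

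Of 25 genes for other peptide and growth factor cargo, 20 were below the filter, among them Npy, Penk, Sst and Adcyap1, so the granins were measured with few companions. Both calls among the 5 genes tested were lower, where 4.82% of all genes tested fell and 4.36% rose. Sct, the hormone secretin, fell from 27.2, 20.6 and 19.7 FPKM to 5.78, 3.59 and 4.69 FPKM (log2 fold change -2.05, SE 0.17, adjusted p = 0.00139 by limma). Adm, the vasodilator peptide adrenomedullin, fell from 2.41, 3.00 and 2.30 FPKM to 0.564, 0.952 and 0.680 FPKM (-1.04, SE 0.14, adjusted p = 0.00727), and its difference was -1.70 with a pseudocount of 0.1 and -1.77 with limma-voom. The count of higher genes was 0 at an unadjusted p under 0.05 and 0 with limma-voom.

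Transcription factors that act on granin genes gave 0 calls in either direction among 9 tested with limma. At an unadjusted p under 0.05, 2 were higher and 0 lower, and limma-voom called 0. As 4.36% of all genes tested were called higher and 4.82% lower, nothing is read from 0 calls among 9. Atf1, named after its values were seen, had an adjusted p of 0.110 by limma (log2 fold change 0.22). Its lowest adjusted p among the alternative fits was 0.0463. Creb1, whose protein binds the cAMP response element, was at 4.81, 5.54 and 5.12 FPKM in si-NC and at 4.62, 4.15 and 5.13 FPKM in si-circRtn4 (log2 fold change -0.13). Rest, the repressor that keeps neuronal genes off in other cells, was at 2.08, 1.69 and 1.41 FPKM in si-NC and at 2.76, 2.78 and 1.95 FPKM in si-circRtn4 (0.36, adjusted p = 0.182, and 0.0653 with the block). The neuroendocrine factor Insm1 was nearly level (-0.0039). The median of the list, -0.05, became 0.04 with TPM, where that of all genes was 0.09. These are RNA levels, and phosphorylation of CREB or binding of REST was not measured.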

How the data were processed

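RNA sequencing of 6 N2a libraries was examined, grouped by the sample labels. The authors deposited an FPKM value for every gene, beside its length and coordinates. The submitters' processing notes list Bowtie 0.12.2 and the builds mm8 and mm9, but 98.0% of the 54532 genes have their GRCm38 coordinates of GENCODE M21, and how reads were counted is not given in the sources used here. Short or near-identical genes can gain or lose reads in such counting. A further 6 columns of other samples were not used.

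Values were taken as log2(FPKM + 1), a scale that understates the change of genes near or below 1 FPKM, and the 12749 genes averaging 1 FPKM or more were tested with limma 3.58.1 in R 4.3.3 (lmFit, eBayes with trend), with Benjamini-Hochberg adjustment and a threshold of 0.05. FPKM times gene length gave whole reads for 100% of values (tolerance 0.01 read), and these reads served limma-voom as an alternative, because a count test was not the planned one. The reads recovered on genes numbered 13541198 to 15122063 per library, and counting CVs are given beside the granins. The code was tested on simulated data.

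Members and gene lists were chosen with earlier results of these data known. Of each list, the 3 genes with the largest change among those called were named, and for each granin the 2 nearest protein-coding genes. Deviations from group means correlated at 0.331, 0.19 and 0.226 for libraries of the same replicate number and at -0.228 to 0.00913 for different numbers. Deviations sum to 0 within a group, so the values for different numbers are not separate evidence of pairing. Because of the same-number values, the numbers were treated as pairs in the fit with a block. The sources do not say what a number shares. Alternatives were a pseudocount of 0.1, no filter, TPM, quantile normalization, limma-voom, the replicate block, leaving out each library, and, added after seeing the data, TPM without Gm23935. Motifs and seed sites were searched with Python 3.11.15 in RefSeq promoter windows and GENCODE M21 transcripts.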

Additional observations from a re-analysis of the deposited data

How the results depend on the processing

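The log2 difference of each granin kept its sign under all 13 alternatives, although dropping the filter or adding the block cannot change it. It ranged from -2.07 to -1.74 for Chgb, -1.61 to -1.48 for Chga, -0.71 to -0.27 for Scg2, -0.33 to -0.17 for Scg3 and 0.02 to 0.23 for Vgf. Of the 18 pathway genes called, 9 were called under every alternative (Adm, Cyb561, Dbh, Rph3al, Scg5, Sct, Slc18a2, Sv2c and Syt1), 9 were lost under at least 1, and 0 changed direction. Pathway genes called lower numbered 9 (without si-NC replicate 2) to 13 when a library was left out. Pathway genes called higher were 1 without a filter on low values, 5 with the replicate block, and 0 (without si-NC replicate 2) to 3 when a library was left out. Among all genes, 615 fell and 556 rose. Without the filter these were 261 and 210, with TPM 393 and 972, and with TPM without Gm23935 536 and 583. With limma-voom 902 rose, and with the replicate block, which pairs libraries of the same number, 1243 fell and 1185 rose. Leaving out a library gave 212 to 416 lower and 157 to 406 higher genes, fewest without si-NC replicate 2, and under all but that without si-NC replicate 1 both counts moved by over 1.5 times. Fewer libraries were fitted there and more genes tested without the filter, and for the other settings the cause was not tested. With the block Cpe, Arfip2 and Cartpt also passed as lower, and Ccdc186 and Atp6ap2 as higher, named after their values were seen. No call named in the report was lost with the block. Depth does not limit the granins, which had at least 1448 reads in each library, but 38 pathway genes below the filter were not tested.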
